A study of Mus musculus with 8 samples.

Results

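The nuclear genes for the subunits of the oxidative phosphorylation machinery were described in intraepithelial lymphocytes (IELs), T cells resident in the epithelium of the intestine. Members were taken by symbol: rows whose symbol begins with Ndufa, Ndufb, Ndufc, Ndufs, Ndufv, Sdha, Sdhb, Sdhc, Sdhd, Uqcr, Cyc1, Cox4i, Cox5, Cox6, Cox7, Cox8 or Atp5, with a mean of at least 10 counts over the 8 libraries. Of 25230 gene rows, 102 had such a symbol. Leaving out 12 assembly factors, 2 pseudogene symbols and 6 rows under the limit gave 82 members. They comprised 36 genes of complex I, 4 of complex II, 9 of complex III, 16 of complex IV and 17 of complex V. Ndufa4, a known subunit of complex IV in spite of its symbol, was placed in complex IV.

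IELs came from C57BL/6J mice in 2 groups, 4 mice given anti-CD3 with exendin-4 (Ex4) and 4 mice given anti-CD3 with PBS (PBS). Both groups therefore carried T cell activation by 35 µg of anti-CD3 antibody, and no group without it was analysed here. Exendin-4, an agonist of the glucagon-like peptide 1 (GLP-1) receptor, was given at 10 nmol/kg. Cells were collected 3 hours after injection by Percoll separation and sorting on CD45, which every leukocyte carries, so that the sort by itself does not separate IELs from other leukocytes. The labels give neither the sex nor the age of the mice.

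Oxidative phosphorylation takes place in the inner mitochondrial membrane. Complexes I and II pass electrons from NADH and succinate to ubiquinone, complex III passes them on to cytochrome c, and complex IV hands them to oxygen. Complexes I, III and IV pump protons, and complex V, the ATP synthase, uses the resulting gradient to make ATP. Most subunits are encoded in the nucleus and a few in mitochondrial DNA. The count table held 0 mitochondrially encoded genes, so the nuclear part alone was measured. Activated T cells are known to raise both glycolysis and mitochondrial respiration.

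Total counts were between 13386889 (Ex4 4) and 31843413 (Ex4 3). Values below are CPM, that is, counts per 1000000 counts of the library, scaled by the trimmed mean of M values (TMM) so that libraries of different depth and composition can be set side by side. T cell markers were present in every library, with Cd3e at 642 to 1061 CPM in Ex4 and 581 to 955 CPM in PBS, and Itgae, the integrin of gut-resident T cells, at 255 to 367 CPM in Ex4 and 226 to 418 CPM in PBS. Cd8a, the CD8 alpha chain that most IELs carry, stood at 953 to 1219 CPM in Ex4 and 1363 to 2074 CPM in PBS without overlap, and was not called. It was the 1 of 11 T cell and IEL markers without overlap, beside 2.66% of all genes tested with Ex4 below PBS. The 11 summed to 70031 to 84072 CPM in Ex4 and 52921 to 79683 CPM in PBS. Of them, 8 had a fitted log2 fold change above 0 (median 0.14), with 0 called. At an unadjusted p under 0.05 in edgeR, 1 was higher and 1 lower. The 20 epithelial markers summed to 566 to 1619 CPM in Ex4 and 850 to 1935 CPM in PBS, and 18 of them had a fitted log2 fold change below 0 (median -0.57), with 0 called and 5 of 20 lower at an unadjusted p under 0.05, beside 3.9% of all genes tested. Epcam, an epithelial adhesion molecule, had 97.4 to 144 CPM in Ex4 and 146 to 184 CPM in PBS, also without overlap. B and plasma cell markers summed to 246 to 2137 CPM in Ex4 and 825 to 1436 CPM in PBS, macrophage and dendritic cell markers to 114 to 174 CPM in Ex4 and 100 to 186 CPM in PBS, and 4 of 5 red cell markers were at 0. The part of these other cells in the values below was not tested, except that a fit with the epithelial score as a term is given with the results. In such bulk samples, fewer cells of a type and less RNA per cell cannot be told apart.

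The subunit genes were expressed in every library at nearly the same overall level in both groups. The 82 members took 1.52, 1.70, 1.71 and 1.67% of all counts in Ex4 1 to 4, against 1.59, 1.51, 1.74 and 1.65% in PBS 1 to 4. Their summed level was 16617 ± 1695 CPM in Ex4 and 16159 ± 971 CPM in PBS (SD, n = 4 each), a ratio of 1.03, and the groups overlapped. Of the members, 77 had at least 10 CPM in each of the 8 libraries. Divided by the length of their exons, the median member stood at 102 CPM per kilobase in Ex4 and 103 CPM per kilobase in PBS. The highest on that scale was Ndufa1, a small membrane subunit of complex I, at 615 ± 89.3 CPM per kilobase in Ex4 and 569 ± 19.3 CPM per kilobase in PBS. The lowest was Cox6b2, the testis form of a complex IV subunit, at 0.578 ± 0.197 CPM per kilobase in Ex4 and 0.487 ± 0.278 CPM per kilobase in PBS (SD, n = 4 each). The highest place depended on the length used. With the longest transcript as the length, Cox8a of complex IV was above Ndufa1, at 666 CPM per kilobase in Ex4 and 590 in PBS.

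No member was called different between Ex4 and PBS, which does not show that levels were equal. Expression was compared across all 14691 genes that passed a filter on low counts, with the quasi-likelihood test of edgeR and Benjamini-Hochberg adjustment at 0.05. Of the 82 members, all of which passed the filter, 0 were called, 0 had an unadjusted p under 0.05, and 0 were called by DESeq2 or by limma-voom. Over all genes tested, 0.0136% were called by edgeR and 0.00681% by limma-voom, and DESeq2 called 0.533% of the 13129 genes to which it gave an adjusted p. In edgeR, 7.61% of all genes tested had an unadjusted p under 0.05 (3.71% higher and 3.9% lower in Ex4). The 2 genes called by edgeR over the whole table were Flna, an actin cross-linking protein, and Cd1d1, a lipid antigen presenting molecule, neither of them a member. Flna averaged 130 ± 17.9 CPM in Ex4 and 43.6 ± 6.47 CPM in PBS, and Cd1d1 80.2 ± 6.81 CPM in Ex4 and 40.0 ± 6.78 CPM in PBS (SD, n = 4 each). The smallest adjusted p of a member was 0.658 (Uqcrh, edgeR). The groups were free of overlap in 0 members, against 4.95% of all genes tested (2.29% with Ex4 above PBS and 2.66% with Ex4 below PBS).

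In the main fit, which used all 8 libraries and no other term, the sizes that the data allow for a difference were small for most members. Fitted log2 fold changes of Ex4 over PBS lay between -0.32 (Cox7a1) and 0.33 (Atp5md), with 0 members past 0.5 in either direction, against 18.6% of all genes tested and 4.91% of the 3465 tested genes at or above the 10% quantile of the members' mean level. Their median was 0.05 and that of all genes tested 0.02, with 52 members above 0 and 30 below. The 95% interval of the fold change lay within 0.5 on the log2 scale for 58 of 82 members (70.7%), and within 1 for 78, the exceptions being the low-level genes Cox4i2, Cox6b2, Cox7a1 and Ndufb4c. Genes of similar level had similar precision. Among those 3465 genes, the interval lay within 0.5 for 62.0%, and the median fold change was -0.02. The within-group SD had a median of 0.193 log2 units over the members, 0.201 over those 3465 genes and 0.342 over all genes tested. Other fits put some members past 0.5. With the epithelial score as a term, the log2 fold change was 0.59 for Atp5k and 0.58 for Cox7c. Without Ex4 2, that of Cox6a2 was -0.61.

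**Figure D1:**
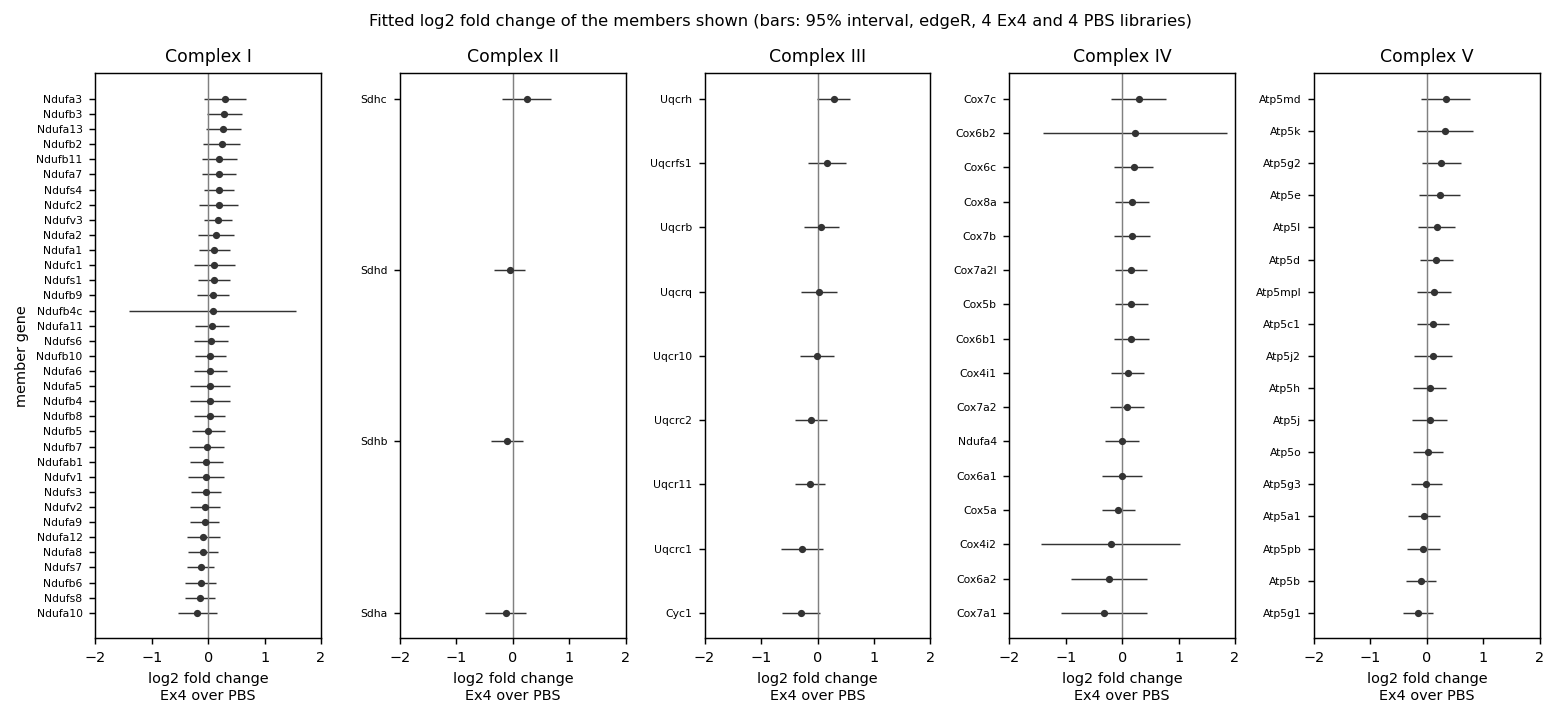
Fitted log2 fold change of Ex4 over PBS for 81 members (points) with its 95% interval (bars, edgeR, 4 libraries a group), by complex. Every interval holds 0, and the points lie between -0.32 and 0.33.

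The members that complexes I to V contribute had similar totals in both groups. Complex I summed to 5241, 6328, 6853 and 5904 CPM in Ex4 1 to 4, against 5431, 5550, 6155 and 6094 CPM in PBS 1 to 4. Complex II, the only complex of the chain with no mitochondrially encoded subunit, summed to 964, 1068, 1167 and 868 CPM in Ex4, against 1107, 1302, 1030 and 921 CPM in PBS. Complex III summed to 2318, 2591, 2793 and 2239 CPM in Ex4, against 2524, 2744, 2629 and 2529 CPM in PBS. In these 3 complexes the lowest library was an Ex4 one, the highest was Ex4 3 for I and III and PBS 2 for II, and the groups overlapped. Complex IV summed to 2597, 3068, 3388 and 2953 CPM in Ex4, against 2313, 2440, 3060 and 3189 CPM in PBS. Complex V summed to 3689, 4033, 4541 and 3868 CPM in Ex4, against 3543, 3819, 4043 and 4214 CPM in PBS. For complexes IV and V, Ex4 3 was the highest library and PBS 1 the lowest, and the groups again overlapped. The ratio of the mean total in Ex4 to that in PBS was 1.05 for complex I, 0.93 for II, 0.95 for III, 1.09 for IV and 1.03 for V. Summed levels of genes of unequal length weight the longer transcripts more and are not numbers of complexes.

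**Figure D2:**
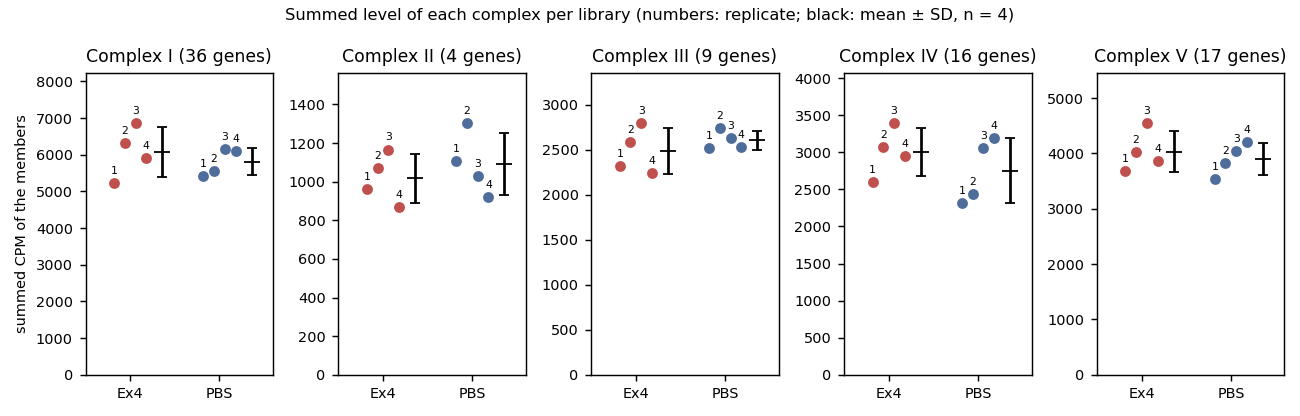
Summed CPM of the members of each complex (vertical axis from 0) in each Ex4 and PBS library, with the replicate number beside each point and the mean ± SD (n = 4) in black. The groups overlap in every complex, and Ex4 3 is the highest library for complexes I, III, IV and V.

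Complex I takes electrons from NADH and is the largest complex of the chain. Its 36 members had a median log2 fold change of 0.04, with 23 above 0 and 13 below, and intervals within 0.5 for 28. The member with the closest values within groups was a catalytic core subunit. A list of 16 core subunits, not only of complex I, had a median within-group SD of 0.154 log2 units, beside 0.193 over all members. Ndufs7, an iron-sulphur subunit next to the ubiquinone site, had 120, 133, 127 and 129 CPM in Ex4 1 to 4, against 143, 148, 132 and 136 CPM in PBS 1 to 4. These libraries lay nearer together than those of any other member, with a within-group SD of 0.067 log2 units, and still overlapped between groups. Its log2 fold change was -0.13 (SE 0.11, 95% interval -0.38 to 0.11, adjusted p = 0.848, edgeR). Ndufv1, the subunit that binds NADH, had 143, 169, 156 and 145 CPM in Ex4, against 188, 179, 141 and 123 CPM in PBS, so that PBS held both the highest and the lowest libraries. Other electron-carrying core subunits had log2 fold changes of 0.10 for Ndufs1, -0.05 for Ndufs3, -0.15 for Ndufs8 and -0.06 for Ndufv2.

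The complex I members with the smallest p were small accessory subunits, which carry no electrons. Ndufb3, at chr1:58586384-58595964 on the plus strand (GRCm38, as for all positions given), had 54.7, 67.3, 76.0 and 59.6 CPM in Ex4 1 to 4, against 55.5, 44.2, 60.3 and 51.3 CPM in PBS 1 to 4. Ex4 3 and Ex4 2 were above every PBS library, and the other 2 Ex4 libraries were not. Its log2 fold change was 0.29 (SE 0.15, adjusted p = 0.686, edgeR). Ndufa13, also known as GRIM-19, had 405, 539, 581 and 483 CPM in Ex4, against 365, 393, 448 and 466 CPM in PBS, a log2 fold change of 0.26 with an adjusted p of 0.703 in edgeR. Of its exon bases, 30.0% overlap Tssk6 on the opposite strand. Ndufa3, at chr7:3617373-3620327 on the plus strand, had 314, 365, 454 and 373 CPM in Ex4, against 249, 237, 357 and 383 CPM in PBS, with PBS 1 and PBS 2 below every other library. Ndufb2 averaged 122 ± 17.5 CPM in Ex4 and 103 ± 18.9 CPM in PBS (SD, n = 4 each), with a log2 fold change of 0.24. Ndufb4c, the lowest complex I member at 0.69 to 1.20 CPM in Ex4 and 0.373 to 1.74 CPM in PBS, is annotated as a processed pseudogene, and 100% of its 100-base stretches also occur in Ndufb4, so its counts are uncertain.

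Complex II, succinate dehydrogenase, also belongs to the tricarboxylic acid (TCA) cycle. Sdha, the flavoprotein that oxidises succinate (chr13:74322254-74350280, minus strand), had 485, 510, 572 and 388 CPM in Ex4 1 to 4, against 569, 680, 464 and 416 CPM in PBS 1 to 4. PBS 2 was the highest library and Ex4 4 the lowest, with the groups overlapping between. Its log2 fold change was -0.12 (SE 0.17, 95% interval -0.49 to 0.24, adjusted p = 0.926, edgeR). Sdhb, the iron-sulphur subunit and the highest of the 4 per kilobase, had 301, 353, 376 and 301 CPM in Ex4, against 361, 386, 367 and 318 CPM in PBS. Sdhd, a membrane anchor, had 160, 183, 197 and 162 CPM in Ex4, against 165, 216, 181 and 170 CPM in PBS. Sdhc, the other anchor, had 18.3, 22.2, 21.5 and 17.1 CPM in Ex4, against 11.8, 19.6, 19.1 and 16.4 CPM in PBS. It was the 1 complex II member with a fold change above 0, at 0.24 (SE 0.20, adjusted p = 0.843, edgeR), and PBS 1 stood below the other libraries. Per kilobase of exon, Sdhc stood at 6.09 ± 0.763 CPM in Ex4 and 5.15 ± 1.09 CPM in PBS, whereas Sdhb stood at 149 ± 17.0 CPM in Ex4 and 160 ± 12.9 CPM in PBS (SD, n = 4 each).

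Complex III held the members with the smallest p in either direction. Uqcrh, the hinge subunit that links cytochrome c1 to cytochrome c (chr4:116066965-116075071, minus strand), had 197, 217, 246 and 216 CPM in Ex4 1 to 4, against 148, 176, 193 and 202 CPM in PBS 1 to 4. The groups overlapped in PBS 4, which was above Ex4 1. The log2 fold change of Uqcrh was 0.28 (SE 0.13, 95% interval -0.00 to 0.57), and its unadjusted p of 0.0511 became 0.658 after adjustment in edgeR. Cyc1, cytochrome c1 itself (chr15:76343523-76346260, plus strand), had 153, 149, 154 and 114 CPM in Ex4, against 185, 214, 164 and 135 CPM in PBS. Here PBS 1, PBS 2 and PBS 3 were above every Ex4 library, and PBS 4 was below 3 of them. The log2 fold change was -0.29 (SE 0.16, adjusted p = 0.695, edgeR). Uqcrc1, a large core protein on the matrix side, had 664, 743, 758 and 519 CPM in Ex4, against 940, 992, 711 and 619 CPM in PBS, again with PBS 1 and PBS 2 highest, and a log2 fold change of -0.28 (adjusted p = 0.76, edgeR). Uqcrfs1, the Rieske iron-sulphur protein, had 243, 247, 306 and 233 CPM in Ex4, against 165, 237, 245 and 271 CPM in PBS, with PBS 1 apart from the rest. The median of the 9 members was -0.01, with 4 above 0 and 5 below, and the log2 fold changes of Uqcr11 and of Uqcr10, the highest per kilobase, were -0.13 and -0.01.

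Complex IV, cytochrome c oxidase, had the highest median of the 5, at 0.13, with 12 members above 0 and 4 below. Cox4i1, the subunit present in most tissues that regulates the enzyme, had 368, 413, 404 and 379 CPM in Ex4 1 to 4, against 299, 347, 392 and 423 CPM in PBS 1 to 4, the PBS mice spanning the wider range. Cox7c, a small structural subunit (chr13:86044816-86046904, minus strand), had 184, 247, 300 and 248 CPM in Ex4, against 148, 135, 267 and 251 CPM in PBS. PBS 1 and PBS 2 were below every other library, while PBS 3 and PBS 4 stood among the Ex4 values. The log2 fold change was 0.29 (SE 0.22, adjusted p = 0.824, edgeR), and 16.2% of its 100-base stretches occur in transcripts of other genes. Cox8a had 335, 372, 376 and 382 CPM in Ex4, against 264, 299, 355 and 381 CPM in PBS, and Cox6c 241, 303, 365 and 317 CPM in Ex4, against 220, 230, 304 and 310 CPM in PBS. In both genes PBS 1 and PBS 2 were the lowest libraries. Cox7a2l and Cox7b had log2 fold changes of 0.16 and 0.17, with adjusted p-values of 0.837 and 0.85 in edgeR. Ndufa4 had 177, 208, 247 and 180 CPM in Ex4, against 182, 183, 226 and 220 CPM in PBS, a log2 fold change of 0.00 (SE 0.14, 95% interval -0.30 to 0.31).

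Complex V makes ATP with a catalytic head, a membrane ring and a stalk that joins them. The head subunits Atp5a1 and Atp5b had log2 fold changes of -0.05 and -0.11. Atp5b, which carries the catalytic sites (chr10:128083273-128090391, plus strand), had 439, 460, 447 and 415 CPM in Ex4 1 to 4, against 416, 524, 461 and 495 CPM in PBS 1 to 4. Atp5a1 had 312, 300, 308 and 304 CPM in Ex4, against 346, 369, 273 and 282 CPM in PBS, so that the Ex4 mice lay inside the range of the PBS mice. The largest fold changes of the complex were in small membrane subunits. Atp5md, also known as Usmg5 and needed for pairing of ATP synthases (chr19:47083464-47090647, minus strand), had 187, 206, 281 and 259 CPM in Ex4, against 157, 127, 210 and 248 CPM in PBS, with a log2 fold change of 0.33 (SE 0.20, adjusted p = 0.741, edgeR). Atp5k, subunit e of the membrane part (chr5:108433244-108434448, minus strand), had 89.5, 116, 139 and 137 CPM in Ex4, against 71.6, 62.7, 126 and 124 CPM in PBS, with a log2 fold change of 0.32 (SE 0.23, adjusted p = 0.799, edgeR). In both genes PBS 1 and PBS 2 were below every Ex4 library and PBS 3 and PBS 4 were not. Per kilobase of exon, Atp5h of the stalk was the highest member, at 210 CPM in Ex4 and 203 CPM in PBS, and Atp5l of the membrane part the lowest, at 16.7 CPM in Ex4 and 14.8 CPM in PBS. The annotated exons of Atp5l add up to 6443 bases and its longest transcript to 6310, so its place depends on that annotated length. Atp5e, of the central stalk, had 192, 201, 247 and 235 CPM in Ex4, against 148, 147, 212 and 239 CPM in PBS. The median of the 17 members was 0.11, with 12 above 0 and 5 below.

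Many members shared the same high and low mice. Each member has a highest library, and for 44 of 82 it was Ex4 3. The lowest library was PBS 1 for 27 members, PBS 2 for 19 and Ex4 1 for 18. Against its own mean over the 8 libraries on the log2 scale, the median member deviated by -0.15, 0.07, 0.20 and -0.02 in Ex4 1 to 4, against -0.18, -0.12, 0.06 and 0.10 in PBS 1 to 4. Ex4 1 thus lay with PBS 1 and PBS 2, and the other 3 Ex4 libraries did not form a level of their own apart from PBS 3 and PBS 4. In Ex4 3, 74 members were above their own mean, and in Ex4 1 only 9 were. Ex4 3 also had the most counts, the fewest genes detected among Ex4 libraries at equal depth (16492, against 17532 to 19087 in the other Ex4 libraries and 16139 to 18036 in PBS) and the highest sum of B and plasma cell markers. The part of these in the members' level was not tested, and values without that mouse were computed. With Ex4 3 left out, the median log2 fold change of the members was -0.03 and 34 of 82 were above 0. Without PBS 1 the median was -0.02 with 39 above 0, and without Ex4 1 it was 0.09 with 55 above 0. The direction of the median thus depended on single mice. With the epithelial score as a term in the fit, the median was 0.16, 11 members (13.4%) had an unadjusted p under 0.05, all higher in Ex4, and 0 were called. In that fit 9.09% of all genes had such a p, with 4.36% of all genes higher and 4.74% lower in Ex4, and the median of all genes was 0.03.

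**Figure D3:**
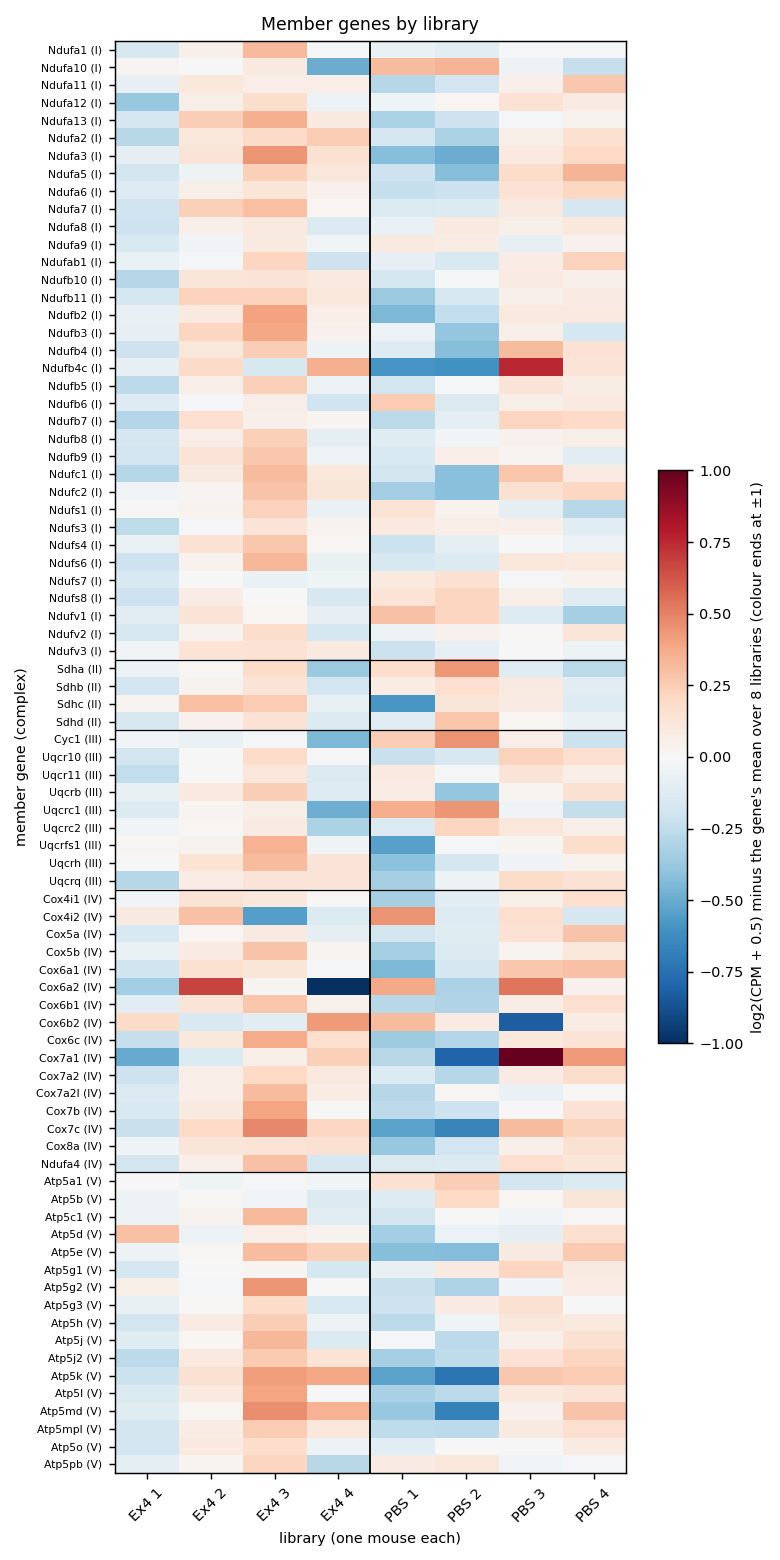
Each row is 1 of 81 members, ordered by complex, and each column a library, 4 Ex4 left of 4 PBS. Colour gives log2(CPM + 0.5) minus the gene's mean over the 8 libraries, with the scale ending at 1 in either direction. Ex4 3 is red over most rows, Ex4 1 and PBS 1 are mostly blue, and Cyc1, Uqcrc1, Sdha, Ndufv1 and Ndufa10 are red in PBS 1 and PBS 2 where most small subunits are blue.

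Members did not all move alike in PBS 1 and PBS 2. Cyc1, Uqcrc1, Sdha, Ndufv1 and Atp5a1 were high in both of these mice, and Cox7c, Atp5k, Atp5md, Cox6c, Ndufa3 and Atp5e were at their lowest. Not every electron-carrying or catalytic subunit was high in both. The Rieske protein Uqcrfs1 was at its lowest in PBS 1, at 165 CPM, and had 237 CPM in PBS 2. The catalytic Atp5b was next to its lowest in PBS 1, at 416 CPM, and at its highest in PBS 2, at 524 CPM. These genes were picked from the plot of members by library after their values were seen, and no test was made. A list of 16 catalytic core subunits, chosen by role with earlier results of these data known, had a median log2 fold change of -0.06. Of them, 4 were above 0 and 12 below, beside a median of 0.05 over all members. In edgeR, 0 of the 16 had an unadjusted p under 0.05. The list counts the membrane anchors Sdhc and Sdhd. It also holds Cyc1, Sdha, Ndufv1 and Atp5a1, which are among the genes picked above, so it is not a separate look. The 16 summed to 3306, 3564, 3818 and 3157 CPM in Ex4 1 to 4, against 3551, 4057, 3464 and 3363 CPM in PBS 1 to 4. The summed CPM of complex IV over that of complex II was 2.69, 2.87, 2.90 and 3.40 in Ex4 1 to 4, against 2.09, 1.87, 2.97 and 3.46 in PBS 1 to 4. The low ratios were those of PBS 1 and PBS 2, while PBS 4 had the highest, and the groups overlapped. No other ratio of complexes was computed. Complexes IV and II had the highest and lowest median log2 fold change, 0.13 and -0.08. Sdha, picked above, belongs to complex II, so the ratio is not a separate look.

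Several subunits of complex IV and the membrane ring of complex V are encoded by more than 1 gene, with forms that differ by tissue. The forms known from most tissues made up the larger share of each pair. Per kilobase of exon, Cox4i1 was 99.4 ± 0.18% of its pair in Ex4 and 99.3 ± 0.30% in PBS, with the lung and hypoxia form Cox4i2 as the remainder. Cox6b1 was 99.9% of its pair with the testis form Cox6b2 in both groups. Cox6a1, the liver-type form, was 88.9 ± 4.14% in Ex4 and 86.5 ± 4.23% in PBS, the remainder being the heart and muscle form Cox6a2, which was 6.18% in Ex4 4 and 19.3% in PBS 1 at its extremes (SD, n = 4 each). In the COX7A family, Cox7a2 was 74.2 ± 0.60% in Ex4 and 74.0 ± 2.12% in PBS. Cox7a2l was 21.4 ± 0.82% in Ex4 and 20.3 ± 3.08% in PBS. The heart and muscle form Cox7a1 had 6.38, 8.39, 9.66 and 11.0 CPM in Ex4 1 to 4, against 7.55, 5.10, 19.2 and 12.6 CPM in PBS 1 to 4, with PBS 3 apart from the others.

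The membrane ring of ATP synthase is built from 1 protein, subunit c, whose mature form is the same from all 3 genes. Atp5g3 made up 56.3 ± 0.43% of the family in Ex4 and 55.7 ± 1.52% in PBS. Atp5g2 had 30.2, 28.8, 39.6 and 29.0 CPM in Ex4 1 to 4, against 24.7, 23.4, 28.5 and 30.5 CPM in PBS 1 to 4, and made up 13.4 ± 1.13% in Ex4 and 11.1 ± 1.27% in PBS. Atp5g1 made up 29.9, 31.8, 28.8 and 31.0% in Ex4, against 34.0, 32.9, 33.2 and 33.0% in PBS (SD, n = 4 each, of 1.29 in Ex4 and 0.50 in PBS). Every Ex4 mouse had a lower share of Atp5g1 than every PBS mouse, and this held as well when the longest transcript was taken as the length. It was 1 of 12 isoform shares, in which the shares of each family sum to 100% and so are not separate looks, and 4.95% of all genes tested had levels without overlap. The shares were not tested, and nothing is read from this one. The level of Atp5g1 itself overlapped between the groups, with a log2 fold change of -0.16 (SE 0.12, 95% interval -0.42 to 0.10, adjusted p = 0.819, edgeR). Atp5g2 shares 34.7% and Atp5g1 5.92% of 100-base stretches with transcripts of other genes, so their split can depend on how shared reads were counted. With the longest transcript as the length, Atp5g1 was 15.5% of the family in Ex4 and 17.3% in PBS, which shows that the size of a share rests on the length chosen.

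**Figure D4:**
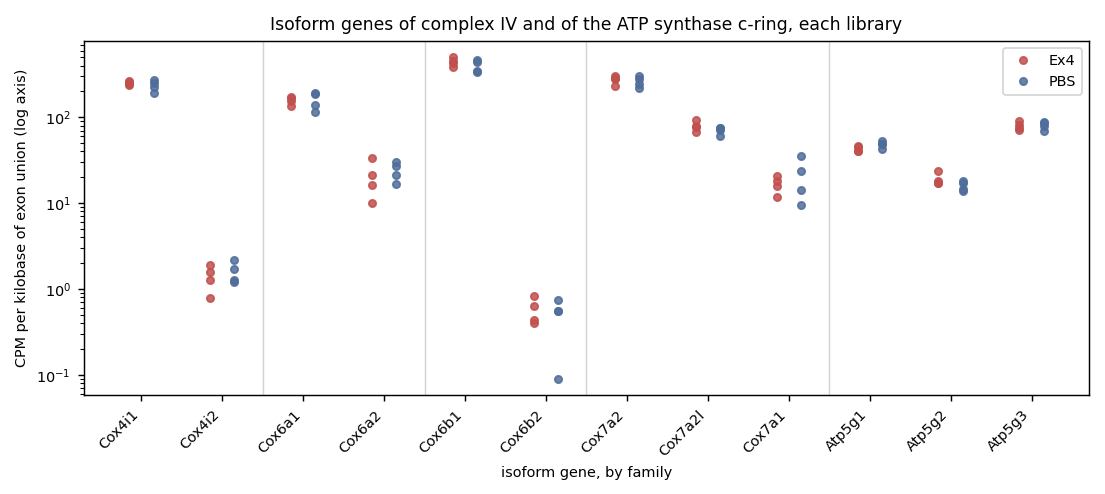
CPM per kilobase of exon (log axis) of the isoform genes of complex IV and of the ATP synthase ring, with 1 point per library for Ex4 (red, left) and PBS (blue, right). Cox4i1 and Cox6b1 lie far above Cox4i2 and Cox6b2, and the Ex4 and PBS points overlap for every gene.

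The promoters of these genes are known for sites of the nuclear respiratory factors, among them NRF1 and the ETS family factor GABP (NRF2), and of YY1. A CRE, the site of CREB, is of background interest because GLP-1 receptor signalling is known to act through cyclic AMP. Windows from 250 bases before to 50 bases after the start site (RefSeq, GRCm38.p6) were found for 66 of the 82 members and searched on both strands. An NRF1 motif, written as GCGCA followed by any base and then GCGC, occurred in 16 members (24.2%), against 10.4% of 11585 tested genes with a window and 5.19% of all 27025 genes with one. An ETS motif, CCGGAAG, occurred in 17 members (25.8%), against 18.6% of tested and 9.93% of all genes, and a YY1 motif, AANATGGCG, in 10 members (15.2%), against 5.25% and 2.76%. At least 1 of these 3 occurred in 37 members (56.1%), against 29.9% of tested and 15.9% of all genes. By complex, it occurred in 16 of 31 windows of complex I, 3 of 3 of complex II, 3 of 5 of complex III, 3 of 12 of complex IV and 12 of 15 of complex V. An SP1 motif, GGGCGG, occurred in 42.4% of members, against 64.4% of tested genes, although the median GC content of the windows was close, at 58.3% and 60.0%. These are counts of letters, the members were not drawn at random, and a match is not evidence of binding.

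The windows of Sdhd, Ndufs6 and Cox6a1 are shown as examples of those that combine an NRF1 motif with an ETS or YY1 motif. That of Uqcrfs1 is shown as an example of those that hold the CRE. Each is written 5′ to 3′ on the gene's strand, which is the minus strand in all 4, with capitals marking matches to the NRF1, ETS, YY1 and CRE motifs. Offsets count from the start site to the motif's leading base.
Sdhd, chr9:50603800-50604099, NRF1 at -79 and ETS at -46: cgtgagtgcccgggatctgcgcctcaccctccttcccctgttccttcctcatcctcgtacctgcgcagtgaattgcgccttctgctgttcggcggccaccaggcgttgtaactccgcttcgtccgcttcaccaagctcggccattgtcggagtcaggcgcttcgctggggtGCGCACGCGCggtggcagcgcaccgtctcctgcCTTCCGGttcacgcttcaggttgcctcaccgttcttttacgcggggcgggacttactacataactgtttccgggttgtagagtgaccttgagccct
Ndufs6, chr13:73328433-73328732, NRF1 at -16 and YY1 at 33: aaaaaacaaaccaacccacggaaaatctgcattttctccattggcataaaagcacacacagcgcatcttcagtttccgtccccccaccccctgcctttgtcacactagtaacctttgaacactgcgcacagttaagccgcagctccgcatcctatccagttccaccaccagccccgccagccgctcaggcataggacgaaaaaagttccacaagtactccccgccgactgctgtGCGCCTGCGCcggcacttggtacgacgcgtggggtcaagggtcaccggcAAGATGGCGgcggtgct
Cox6a1, chr5:115348909-115349208, NRF1 at -162 and -117 and ETS at -16: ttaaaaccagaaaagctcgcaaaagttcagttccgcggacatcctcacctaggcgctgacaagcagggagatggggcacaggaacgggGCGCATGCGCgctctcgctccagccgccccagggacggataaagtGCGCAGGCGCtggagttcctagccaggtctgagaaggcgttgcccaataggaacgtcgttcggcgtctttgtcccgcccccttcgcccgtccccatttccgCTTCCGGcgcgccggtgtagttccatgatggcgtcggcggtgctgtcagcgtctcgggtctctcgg
Uqcrfs1, chr13:30545267-30545566, CRE at -29: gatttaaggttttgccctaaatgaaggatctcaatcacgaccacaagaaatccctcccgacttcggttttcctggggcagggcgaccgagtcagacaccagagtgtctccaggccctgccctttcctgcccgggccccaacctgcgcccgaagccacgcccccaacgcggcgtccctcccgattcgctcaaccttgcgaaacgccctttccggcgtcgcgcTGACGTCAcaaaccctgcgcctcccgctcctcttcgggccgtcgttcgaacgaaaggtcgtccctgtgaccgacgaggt

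A CRE, TGACGTCA, was found in 4 members (6.06%), against 3.38% of tested and 2.03% of all genes. They were Ndufa10, Ndufa11, Ndufb2 and Uqcrfs1, with the motif at -67, -158, -14 and -29. Their log2 fold changes were -0.19, 0.07, 0.24 and 0.16, and none passed the test, with adjusted p-values of 0.848, 0.95, 0.769 and 0.87 in edgeR. Of the members with NRF1 and other motifs shown above, fold changes were -0.06 for Sdhd, 0.05 for Ndufs6 and 0.00 for Cox6a1. Atp5h and Atp5k, whose windows are not shown, also hold an NRF1 and an ETS motif. Their log2 fold changes were 0.05 and 0.32.

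**Figure D5:**
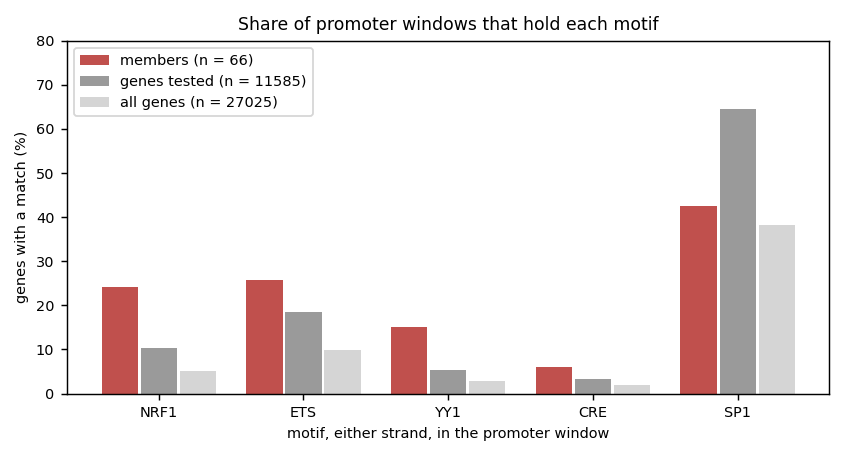
Share of genes (%, vertical axis from 0) whose promoter window holds each motif on either strand, for the 66 members with a window, the 11585 tested genes and all 27025 genes. NRF1, ETS, YY1 and CRE shares are higher among members than among tested genes, and the SP1 share is lower.

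The genes that assemble, feed and supply these complexes also gave 0 calls, and their medians lay below 0 in the main fit. Assembly factors had a median log2 fold change of -0.05 over 47 tested genes (18 above 0, 29 below). The 18 TCA cycle genes had a median of -0.11 (2 above 0, 16 below), the 78 mitochondrial ribosome genes -0.05 (26 above 0, 52 below), 15 regulators of mitochondrial biogenesis -0.07 (4 above 0, 11 below), 14 genes of the mobile carriers ubiquinone and cytochrome c -0.09 (6 above 0, 8 below) and 13 inner membrane carriers and structural proteins -0.18 (4 above 0, 9 below). Over all genes tested the median was 0.02. Over the 3465 tested genes of a level similar to the members, described above, it was -0.02 (1593 above 0, 1872 below). The medians of these lists were not computed with single libraries left out. Whether their direction depends on single mice, as that of the members did, was therefore not tested. At an unadjusted p under 0.05, assembly factors had 2 higher and 3 lower, inner membrane genes 2 lower, mitochondrial ribosome genes 3 lower, biogenesis regulators 1 lower, and TCA cycle and mobile carrier genes 0, beside 3.71% higher and 3.9% lower over all genes tested. Of those 3465 genes, 171 were higher and 240 lower at such a p in edgeR. Phb, prohibitin of the inner membrane, had 138, 161, 159 and 120 CPM in Ex4 1 to 4, against 233, 188, 191 and 185 CPM in PBS 1 to 4, and the groups did not overlap. The log2 fold change of Phb was -0.46 (SE 0.14), and its unadjusted p of 0.00434 became 0.429 after adjustment in edgeR, so it was not called. Slc25a5, the ADP/ATP translocase that carries ATP out of the matrix, had 1209, 1210, 1198 and 807 CPM in Ex4, against 1539, 1524, 1295 and 1264 CPM in PBS, also without overlap, and a log2 fold change of -0.35 (adjusted p = 0.636, edgeR).

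Among the other genes of these lists with the smallest p, most had lower means in Ex4 than in PBS, and none was called. Cycs, cytochrome c, averaged 268 ± 37.8 CPM in Ex4 and 326 ± 31.0 CPM in PBS. Cs, citrate synthase, averaged 96.7 ± 8.76 CPM in Ex4 and 113 ± 16.2 CPM in PBS, and Suclg2, a subunit of succinyl-CoA ligase, 15.3 ± 2.01 CPM in Ex4 and 19.6 ± 2.16 CPM in PBS. Atpaf2 and Sdhaf1, assembly factors of complexes V and II, averaged 80.6 ± 8.20 and 58.7 ± 15.7 CPM in Ex4, against 107 ± 20.3 and 86.2 ± 23.1 CPM in PBS. Tefm, an elongation factor of mitochondrial transcription, averaged 23.9 ± 4.95 CPM in Ex4 and 32.7 ± 3.91 CPM in PBS. The ribosomal proteins Mrps2 and Mrpl39 averaged 24.4 ± 2.21 and 57.2 ± 11.5 CPM in Ex4, against 33.4 ± 8.49 and 73.9 ± 5.54 CPM in PBS (SD, n = 4 each). Coq8b, of ubiquinone synthesis, and Polg, the mitochondrial DNA polymerase, had log2 fold changes of 0.33 and 0.44. Adjusted p-values of these genes were between 0.529 and 0.731 in edgeR. These genes, Phb and Slc25a5 included, were named for their small p, so their separation is set by that choice. Over whole lists, groups without overlap and with Ex4 below PBS numbered 2 of 78 mitochondrial ribosome genes, 1 of 18 TCA cycle genes, 1 of 15 biogenesis regulators, 1 of 47 assembly factors, 2 of 13 inner membrane genes and 0 of 14 mobile carrier genes, beside 2.66% of all genes tested.

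The limit of 10 counts touched few genes. Just inside it were Cox6b2 with a mean of 12.5 counts, Ndufb4c with 18.8 and Cox4i2 with 25.5, and just outside Ndufa11b with 8.75, Cox8b with 3.25, Ndufa4l2 with 2.75, Cox8c with 1.5 and Cox7b2 with 0.5. Cox8b is a form known from heart and muscle and Cox7b2 from testis. Ndufs5, a complex I subunit, is listed at 0 in all 8 libraries. A processed pseudogene shares 12.7% of its 100-base stretches, and since genes of this kind are used by every cell, no level is given for it. Of the members, 21 share a 100-base stretch with a transcript of another gene, 7 of them in more than 10% of their stretches, and 26 overlap exon bases of a gene on the opposite strand. The libraries were strand-specific, and whether counting used the strand is not given in the sources used here.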

How the data were processed

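The values deposited by the authors are whole-number read counts, not normalised, for 4 Ex4 and 4 PBS libraries, and 0 per-sample columns were left unused. Per the labels, cells were lysed in TRIzol and the stranded TruSeq kit for mRNA was used. STAR 2.7.9a, DESeq2 and mm10 are named, without their roles, per the submitters' processing notes. Neither counter nor annotation is given in the sources used here.

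Groups came from the labels, which describe separate mice. Replicates were distinct libraries: the mean chi-square per gene between them was at least 22.1, far above sampling noise. Counts were tested with edgeR 4.0.16 (R 4.3.3): filterByExpr by group, TMM, robust quasi-likelihood F test, Benjamini-Hochberg adjustment over 14691 genes, threshold 0.05. SEs came from the fold change and F statistic. Alternatives used DESeq2 1.42.0, limma-voom (limma 3.58.1), other scaling and filters, each library left out, a replicate block and an epithelial score. The edgeR fit was tested on simulated data with known changes in genes drawn at random from all those tested. It recovered 6 of 67 genes changed 1.5-fold, 23 of 69 changed 2-fold and 37 of 64 changed 3-fold. Of its 75 calls there, 9 were false. Changes of small size were thus mostly missed over genes of all levels. The share missed was not measured for the members, whose median within-group SD was 0.193 log2 units, against 0.342 over all genes tested. Exon lengths, positions and shared stretches came from GENCODE M21 (GRCm38), and genes are compared in level only per kilobase. Intervals are for the fold change between the groups, rest on these 8 mice and do not give the spread between mice.

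The members and lists were chosen with earlier results of these data known. Named were, per complex, the 4 members with the smallest p and the highest and lowest per kilobase, the core subunits and isoform families, rows next to the count limit, and 2 genes of each other list by p. Members named from the plot by library, and the CRE genes, were not under this rule and were picked with their values known. Python 3.11.15 was used for tables and figures. The values of 1 member are not reported here, although counts and totals include it.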

Additional observations from a re-analysis of the deposited data

Results flagged for a closer look

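Within a group of 4 mice, 1 library stood far from the other 3 in 3 of 108 groups of values examined, where chance gives about 1 in 20, or 5.4. For Cyc1 in Ex4, the lowest library, Ex4 4 at 6.84 log2 CPM, was separated from the next at 7.22 by 0.888 of the group's range, above Dixon's critical value for 4 samples. For Atp5g2 in Ex4, the highest library, Ex4 3 at 5.31 log2 CPM, was separated from the next at 4.92 by 0.848 of the range. For Cox6b2 in PBS, the lowest library, PBS 3 at -2.39 log2 CPM, was separated from the next at -0.49 by 0.842 of the range, at a mean of 12.5 counts per library, where counting error is large.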

How the results depend on the processing

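Under all 17 alternatives, 0 of the 82 members were called, and the smallest adjusted p of any member was 0.405, with the epithelial score as a covariate. Members with an unadjusted p under 0.05 numbered 0 in the main analysis, beside 7.61% of all genes. They numbered 1 with upper-quartile factors (1.22% of members, beside 8.45% of all genes), 1 with limma-voom (1.22%, beside 7.89%) and 5 with a replicate block (6.10%, beside 7.74%). With the epithelial score as a covariate they numbered 11, all higher in Ex4 (13.4%, beside 9.09%, or 4.36% for genes higher in Ex4). With 1 library left out they numbered 0 to 5, with 5 without PBS 4 (6.10%, beside 7.71%) and 3 without Ex4 1 (3.66%, beside 5.62%). The labels do not say whether the replicate numbers pair the mice. Correlations of same-numbered libraries were 0.0898, -0.0267, -0.235 and 0.144, and those of the other pairs lay between -0.335 and 0.361. With 4 mice a group these values cannot settle whether mice were paired or shared a batch. Genes called higher in Ex4 over the whole table numbered 2 in the main analysis, 5 with no low-count filter, 40 with DESeq2, 1 with limma-voom, 1 with the replicate block, 1 with the epithelial score and 1 to 10 with 1 library left out, with 10 without PBS 2 and 1 without any other single library, where the call lost was that of Cd1d1. Genes called lower numbered 0, against 3 with no low-count filter, 30 with DESeq2 and 0 to 4 with 1 library left out. The cause was not tested. The median log2 fold change of the members was -0.03 to 0.09 with 1 library left out, -0.04 without PBS 2 and Ex4 3 together and 0.16 with the epithelial score. That of complex III was -0.13 without PBS 2 and Ex4 3. The number of members above 0 was between 32 and 60, and 45 members kept their sign under every alternative. Another scaling moved the median of all genes by at most 0.016. With the longest transcript as the length, 58 of 96 levels per kilobase moved by more than the spread between replicates. Depth limits the members of a few counts, Cox6b2, Ndufb4c and Cox4i2, whose intervals reach past 1 on the log2 scale.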
